A study of Mus musculus with 6 samples.

Results

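Complement is a cascade of plasma and tissue proteins that marks cells and debris for removal. C1q, built from the chains encoded by C1qa, C1qb and C1qc, binds its targets and activates the proteases C1r and C1s. Of these, C1s cleaves C4 and so leads to cleavage of C3. The released peptides C3a and C5a act on receptors encoded by C3ar1 and C5ar1, and Serping1 encodes the inhibitor that blocks C1r and C1s. In tissue, C1q and both receptors are known from macrophages and other myeloid cells, whereas C1s, C4, C3 and the C1 inhibitor are known from stromal cells such as fibroblasts. The 9 genes C1qa, C1qb, C1qc, C3ar1, C5ar1, C1s1, C4b, C3 and Serping1 were taken by name from a table of 38293 genes, and all 9 passed the filter on low counts, as did 14746 genes in all. They were read as 5 macrophage components (the C1q chains and the receptors) and 4 stromal components.

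RNA-seq had been performed on 3 heart samples labelled WT and 3 labelled Zeb2 cKO, all from mice of strain C57BL/6J (backcrossed), at 14 days after permanent occlusion of the LAD artery. According to the methods the mice were adult, both groups carried floxed Zeb2 alleles (Zeb2 fl/fl), and the Zeb2 cKO mice also carried Cre under the cardiomyocyte promoter Myh6, so that Cre itself differed between the groups. The labels place the tissue in the border region of the infarct and the methods in the remote zone. The comparison asked how the complement genes of the whole tissue differed when Zeb2 was deleted from cardiomyocytes.

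Values are given as CPM, counts scaled to a common library size with TMM, and in the order of replicates 1, 2 and 3. Libraries held 37288174 to 51136331 counts, of which 14301225 to 19024394 lay outside the mitochondrially encoded genes. Zeb2 was at 61.3, 116.05 and 71.9 CPM in WT and at 59.6, 72.6 and 66.5 CPM in Zeb2 cKO hearts, so the counts over the whole gene in whole tissue did not separate the genotypes. WT 2 stood apart from the other libraries before any gene of the cascade was considered. It held the highest value in 35.2% of all tested genes and the lowest in 34.6%, against 8.95% to 17.4% in the other libraries. Summed macrophage markers (15 of 15 tested) were at 1045 CPM in WT 2 and at 294 to 398 CPM elsewhere, and summed fibroblast markers (10 of 10 tested) at 9794 CPM against 1733 to 2376 CPM. Summed cardiomyocyte markers (10 of 10 tested) were at 13208 CPM in WT 2 and 21805 to 27408 CPM elsewhere, and none of the markers of these 3 lists was at 0. The log2 fold changes of the 9 genes and of the other complement genes named below are therefore given with and without WT 2. In bulk tissue, fewer cells of a type and less RNA per cell cannot be told apart.

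The C1q genes are neighbours on chromosome 4 (GRCm38, minus strand). C1qb spans chr4:136880129-136886187, C1qc chr4:136889804-136893065 and C1qa chr4:136895917-136898803, with 3616 bases between C1qb and C1qc and 2851 between C1qc and C1qa. Of the 9 genes, 6 had an entry in the promoter table (RefSeq, GRCm38.p6), and 4 of these are shown because they cover C1q genes of the cluster, a receptor of the same compartment and the stromal component with the highest counts. Each sequence is the 250 bases before the start that RefSeq annotates, 5′ to 3′ on the gene's strand (all are minus). Gencode, from which the gene spans come, places the outermost start 151 bases further upstream for C1qc and 202 for C5ar1, so that many bases of these windows lie within the Gencode gene. Capitals mark matches on either strand to CACCTG, the letters that ZEB proteins bind, to AGGAAGT (PU.1), to TTCNNNGAA (STAT) or to TTGCNNAA (C/EBP).
C1qb (chr4:136886201-136886450): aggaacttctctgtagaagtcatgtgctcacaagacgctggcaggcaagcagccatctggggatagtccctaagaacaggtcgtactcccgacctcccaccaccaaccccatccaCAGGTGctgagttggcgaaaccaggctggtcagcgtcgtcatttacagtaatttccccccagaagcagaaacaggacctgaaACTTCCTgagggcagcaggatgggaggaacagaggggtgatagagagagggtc
C1qc (chr4:136892915-136893164): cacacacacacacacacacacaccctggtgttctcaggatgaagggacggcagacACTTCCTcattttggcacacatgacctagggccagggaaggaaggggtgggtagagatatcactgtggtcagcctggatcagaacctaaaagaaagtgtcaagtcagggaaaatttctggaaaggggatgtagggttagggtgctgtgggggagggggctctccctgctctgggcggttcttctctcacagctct
C5ar1 (chr7:16259339-16259588): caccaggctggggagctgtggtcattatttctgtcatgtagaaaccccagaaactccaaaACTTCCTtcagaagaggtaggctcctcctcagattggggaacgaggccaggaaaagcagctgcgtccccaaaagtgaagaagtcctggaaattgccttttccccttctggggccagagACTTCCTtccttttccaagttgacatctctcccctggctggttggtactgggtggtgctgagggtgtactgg
C3 (chr17:57228137-57228386): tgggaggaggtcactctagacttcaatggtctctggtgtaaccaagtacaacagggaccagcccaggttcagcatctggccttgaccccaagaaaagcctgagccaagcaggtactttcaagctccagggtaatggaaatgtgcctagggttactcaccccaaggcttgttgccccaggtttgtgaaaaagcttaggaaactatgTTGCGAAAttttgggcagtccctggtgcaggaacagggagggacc

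The PU.1 letters occurred in the promoters of C1qb, C1qc and C5ar1 (at 53 bases, 195 bases, and 190 and 72 bases before the RefSeq start), and in 7.69% of all 32851 promoters of this length. CACCTG occurred in the C1qb promoter, at 135 bases before the start, and in 17.2% of all promoters. TTGCNNAA occurred in the C3 promoter at 45 bases before the start, in 1 of the 2 annotated C1s1 promoters, and in 9.56% of all promoters. The STAT letters, found in 7.02% of all promoters, were in none of the 6 genes, and the C3ar1 promoter held none of the 4 motifs. Both C5ar1 matches lie inside the Gencode gene, downstream of its outermost start. The matches describe the letters and do not show binding.

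With all 6 libraries, all 9 genes had a lower mean in Zeb2 cKO than in WT hearts, by 0.41 (C1s1) to 1.04 (C3ar1) on the log2 scale. WT 2 held the highest value of the 6 libraries in each of the 9 genes. In all 9 genes the groups overlapped, because WT 2 lay above and at least 1 other WT library below all Zeb2 cKO libraries. A log2 fold change under -0.2 was reached by 9 of 9 genes, against 22.6% of all tested genes, and one over 0.2 by 0 of 9 (15.9% of all). In edgeR (quasi-likelihood test, Benjamini-Hochberg adjustment) 0 of 9 genes had an adjusted p under 0.05, as did 0% of all genes in either direction. An unadjusted p under 0.05 was reached by 0 of 9, against 0.861% of all genes for lower and 1.04% for higher values. Groups that did not overlap were seen in 0 of 9, against 2.97% of all genes for lower and 3.39% for higher values. The adjusted p was 0.957 for each of the 9 genes, and DESeq2 called none of them either.

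**Figure D1:**
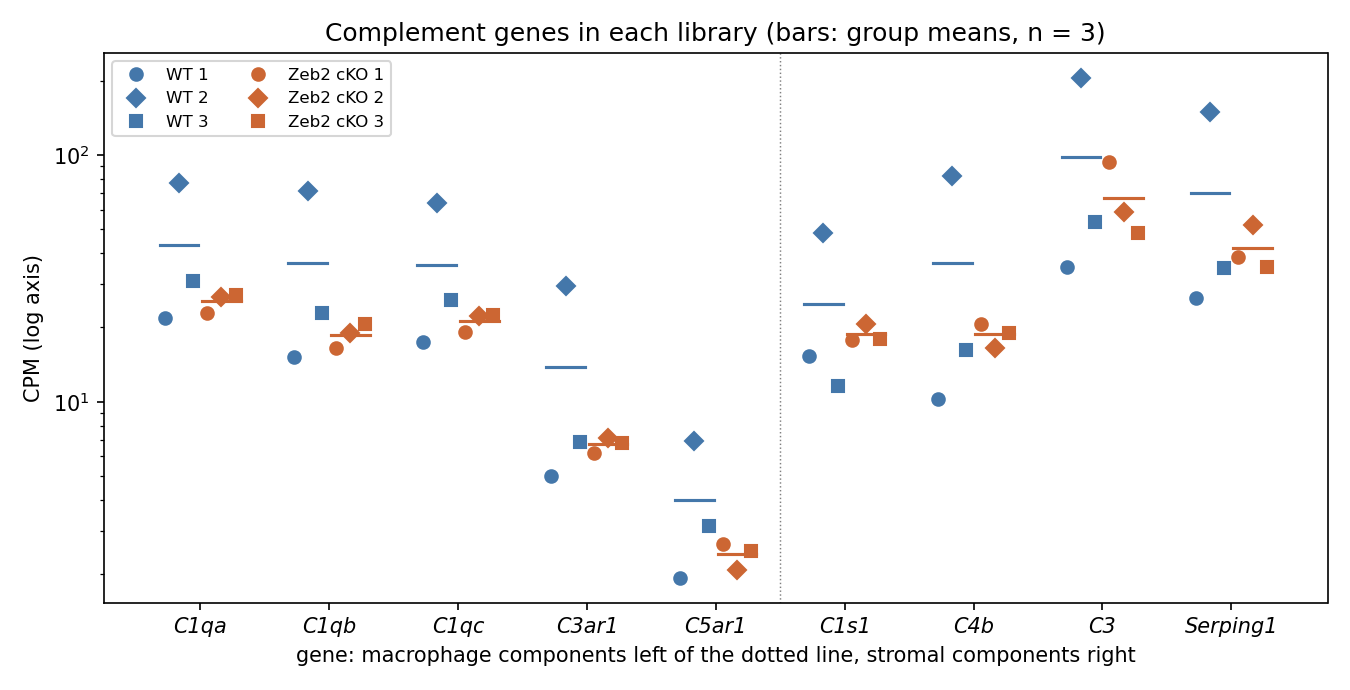
CPM of the 9 complement genes (log axis) in each of the 3 WT (blue) and 3 Zeb2 cKO (orange) libraries, with the symbol giving the replicate number and bars the group means. WT 2 is the highest point of every gene, while the Zeb2 cKO libraries lie between or near WT 1 and WT 3 for the macrophage components and at or above them for most stromal components.

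C1qa, which encodes the A chain of C1q, was at 21.85, 76.8 and 30.7 CPM in WT and at 23.0, 26.6 and 27.0 CPM in Zeb2 cKO hearts. C1qb, for the B chain, was at 15.2, 71.4 and 22.9 CPM in WT and at 16.5, 18.9 and 20.6 CPM in Zeb2 cKO hearts. C1qc, for the C chain, was at 17.5, 63.7 and 25.9 CPM in WT and at 19.2, 22.2 and 22.5 CPM in Zeb2 cKO hearts. For each chain the Zeb2 cKO libraries all lay between WT 1 and WT 3, and WT 2 was 2.92-fold (C1qa), 3.75-fold (C1qb) and 2.93-fold (C1qc) above the mean of the other WT libraries. The log2 fold changes were -0.76 for C1qa (standard error 0.44), -0.97 for C1qb (standard error 0.54) and -0.75 for C1qc (standard error 0.44), and without WT 2 they were -0.039, -0.023 and -0.024. The standard errors without WT 2 were 0.16, 0.18 and 0.17.

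The chains are parts of 1 protein, and their proportions were compared as counts per kilobase of the longest transcript. C1qa made up 38.4% to 42.4%, C1qb 28.1% to 34.1% and C1qc 27.5% to 30.03% of the sum over the 6 libraries. The group means were 30.5% ± 3.20 in WT and 28.9% ± 0.753 in Zeb2 cKO hearts for C1qb (SD, n = 3 each), a difference within the spread of the WT libraries. WT 2 differed from all other libraries here as well. Of the C1q counts of WT 2, 33.7% were C1qb (3135 of 9299 counts, 95% Wilson interval 32.8% to 34.7%). In the other 5 libraries this share was 27.8% to 29.4%, and the highest upper bound of their intervals was 30.8%. Such intervals cover counting error only. Across libraries the log2 CPM of the chains correlated with a lowest r of 0.9987 with all 6 libraries and of 0.988 without WT 2. These values are over 6 and 5 libraries that share depth and tissue composition.

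C3ar1 encodes the receptor for C3a and lies at chr6:122847138-122856161. It was at 4.99, 29.5 and 6.87 CPM in WT and at 6.20, 7.14 and 6.79 CPM in Zeb2 cKO hearts. The Zeb2 cKO libraries lay close together, with WT 3 inside their range, and WT 2 was 4.98-fold above the mean of the other WT libraries. Its log2 fold change, -1.04 (standard error 0.64) with all libraries, was 0.18 (standard error 0.16) without WT 2. C5ar1, the receptor for C5a at chr7:16246743-16259540, was at 1.94, 6.93 and 3.15 CPM in WT and at 2.66, 2.07 and 2.49 CPM in Zeb2 cKO hearts. The Zeb2 cKO libraries lay between WT 1 and WT 3. The log2 fold change was -0.74 with all libraries (standard error 0.44) and -0.074 without WT 2 (standard error 0.24). The ratio of C3ar1 to C5ar1 counts was 4.26 in WT 2 and 2.18 to 3.44 in the other libraries. C5ar1 is also known from neutrophils, whose markers were sparse. Of the 7 neutrophil markers 3 were tested, Ly6g had 3 or fewer counts in every library, and the summed level was 5.20 CPM in WT 2 and 1.52 to 3.41 CPM elsewhere. Csf3r alone made up 3.69 CPM of the sum in WT 2. The other tested markers were highest in WT 3, S100a8 at 0.625 CPM (0.319 in WT 2) and S100a9 at 1.12 CPM (0.706 in WT 2). Cxcr2, Mmp8 and Retnlg, not tested, were highest in WT 2, with 7, 9 and 5 counts there. The part of neutrophils in the C5ar1 values was not tested.

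The stromal components C1s1, C4b and Serping1 differed from the macrophage components in where the other WT libraries lay. For C3, as for C3ar1, WT 1 lay below the Zeb2 cKO libraries and WT 3 inside their range. C1s1 encodes the protease C1s (chr6:124530345-124542359) and was at 15.3, 48.1 and 11.6 CPM in WT and at 17.7, 20.6 and 18.0 CPM in Zeb2 cKO hearts. All Zeb2 cKO libraries were above WT 1 and WT 3 and below WT 2. C4b encodes C4 (chr17:34728380-34743882) and was at 10.2, 82.4 and 16.2 CPM in WT and at 20.7, 16.5 and 19.0 CPM in Zeb2 cKO hearts, with the same arrangement and, at 6.22-fold, the largest excess of WT 2 over the other WT libraries among the 9 genes. Serping1 (chr2:84765387-84775444) was at 26.3, 149.6 and 34.8 CPM in WT and at 38.4, 52.2 and 35.3 CPM in Zeb2 cKO hearts. Here too the Zeb2 cKO libraries lay above WT 1 and WT 3, and the margin over WT 3 was narrow for Zeb2 cKO 3, as it was for Zeb2 cKO 2 in C4b.

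C3, the central component of the cascade (chr17:57203970-57228136), was at 35.2, 205 and 53.2 CPM in WT and at 93.8, 58.7 and 48.4 CPM in Zeb2 cKO hearts. It was the gene that varied most among the Zeb2 cKO libraries, with a coefficient of variation of 35.6% against 7.15% (C3ar1) to 21.4% (Serping1) in the other 8, and Zeb2 cKO 3 lay below WT 3. Mesothelial cells are also known to express C3. Their 6 markers summed to 6.90, 10.6 and 4.71 CPM in WT and 6.95, 9.86 and 7.02 CPM in Zeb2 cKO hearts. Hepatocytes are the main source of plasma C3, and their 5 markers summed to 0.120 to 2.89 CPM, with 0 of them passing the filter.

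With all 6 libraries the stromal log2 fold changes were -0.41 for C1s1 (standard error 0.51), -0.96 for C4b (standard error 0.72), -0.55 for C3 (standard error 0.65) and -0.74 for Serping1 (standard error 0.64). Without WT 2 each was above 0, at 0.48 for C1s1 (standard error 0.15), 0.50 for C4b (standard error 0.20), 0.60 for C3 (standard error 0.29) and 0.46 for Serping1 (standard error 0.19). A log2 fold change over 0.2 was then found in 4 of 4 stromal and 0 of 5 macrophage components, against 14.2% of all 14966 genes tested in these 5 libraries. The stromal genes C1s1, C4b and Serping1 had an unadjusted p under 0.05 (0.0133, 0.0376 and 0.0471 in edgeR), against 1.55% of all genes for higher values, and 0 of 9 genes for lower values, against 1.08%. The adjusted p was 0.9997 for all 9 genes, so no gene passed the test. In the same 3 genes the Zeb2 cKO libraries did not overlap with WT 1 and WT 3, against 8.31% of all genes for higher values, and 0 of 9 genes did not overlap with lower values, against 7.22%. The median log2 fold change without WT 2 was 0.49 for the stromal and -0.024 for the macrophage components, beside 0.0025 for all genes. With all libraries these medians were -0.64, -0.76 and -0.0069. Among markers of other cell types, most of those of mesothelial cells and adipocytes were also higher in Zeb2 cKO hearts without WT 2. The mesothelial markers had a median log2 fold change of 1.10 then, 5 of 6 were over 0.2, and Krt19, Msln, Upk1b and Upk3b did not overlap between the groups. Krt19 was at 1.74 (standard error 0.45) and Msln at 1.15 (standard error 0.37), while Wt1 was at -0.13. Counts were low, at 3 and 4 in WT 1 and WT 3 against 16, 15 and 15 in Zeb2 cKO hearts for Krt19. For Msln they were 29 and 24 against 70, 97 and 56. Both adipocyte markers tested in these 5 libraries, of 6 in the list, did not overlap and were higher as well. In WT 1 and WT 3 they had only 2 and 3 counts (Cidec) and 4 and 3 counts (Adig). Other lists had a median below 0 without WT 2. These were neutrophil (-0.89, 3 tested), lymphocyte (-0.42, 2 tested), hepatocyte (-2.16, 1 tested), cardiomyocyte (-0.083) and endothelial markers (-0.0061). Of the 10 cardiomyocyte markers, 2 did not overlap and were lower. The smooth muscle and pericyte markers had a median of 0.093. The part of mesothelial cells and adipocytes in the stromal values was not tested.

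**Figure D2:**
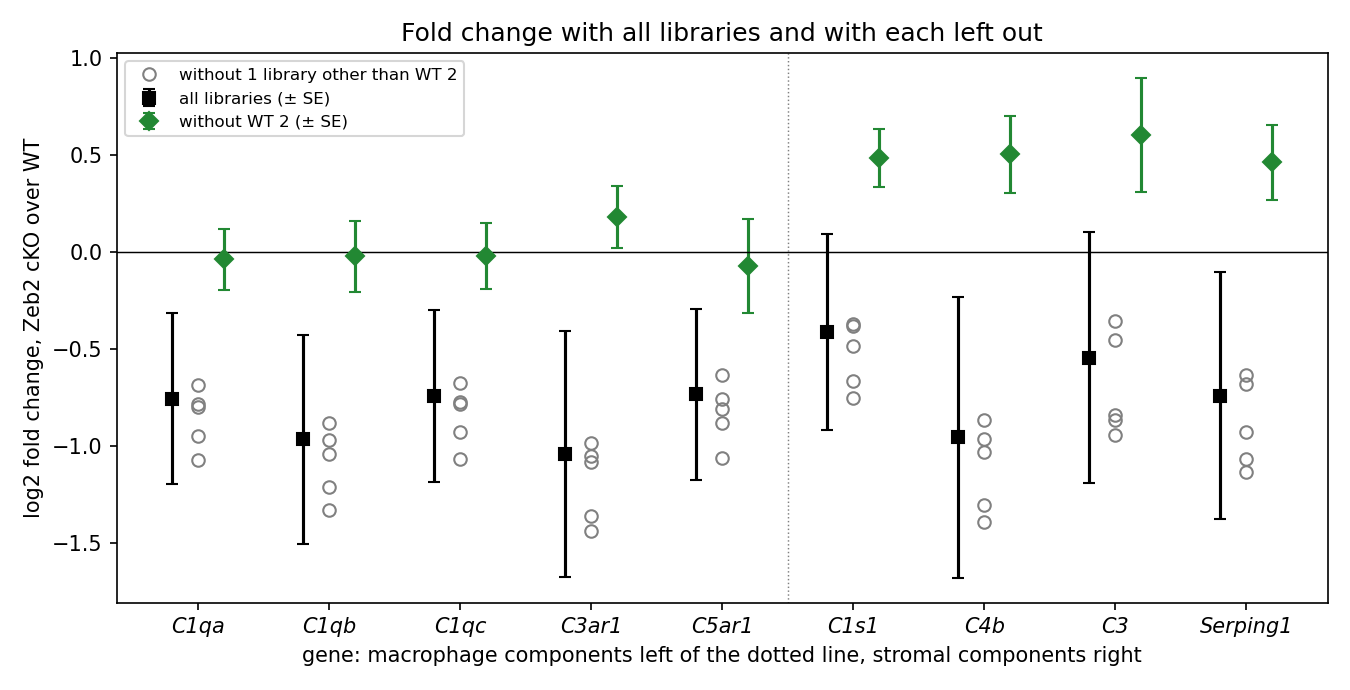
Log2 fold change (Zeb2 cKO over WT) of each gene with all 6 libraries (black squares, ± SE), without WT 2 (green diamonds, ± SE) and without each of the other libraries (grey circles). With any library other than WT 2 left out, each gene stays below 0. Without WT 2 the macrophage components lie at -0.074 to 0.18 and the stromal components at 0.46 to 0.60.

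WT 1 also shaped the values, as it was the lowest library in 8 of the 9 genes. Without WT 1 the median log2 fold change was -1.07 for the macrophage and -1.04 for the stromal components. All 9 genes were then under -0.2, against 28.8% of all genes, and 0 of 9 over 0.2 (26.5%). C1qa, C1qb, C1qc and C5ar1 did not overlap between the groups, against 12.1% of all genes for lower values, and 0 of 9 did so with higher values (10.9%). All 5 macrophage components had an unadjusted p under 0.05 in edgeR, against 5.49% of all genes for lower values, and 0 of 9 for higher values (2.04%). The lowest adjusted p of the 9 genes was 0.596 (edgeR, Benjamini-Hochberg).

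Members were next set against markers of the cells they are known from. On the log2 scale the mean of the C1q chains exceeded the mean of the macrophage markers by 0.65, 1.18 and 0.87 in WT and by 0.53, 0.64 and 0.88 in Zeb2 cKO hearts. The difference between the group means was -0.22 (-0.080 without WT 2). The SD was 0.26 in WT and 0.18 in Zeb2 cKO hearts (n = 3 each), and the libraries overlapped. For the receptors the same measure was -1.68, -1.07 and -1.50 in WT and -1.59, -1.72 and -1.47 in Zeb2 cKO hearts. The difference was -0.17, with an SD of 0.31 in WT, and it was -0.0018 without WT 2. C1q chains and receptors were highest in WT 2 relative to the macrophage markers as well. Of the 15 markers 11 lay under -0.2 and 2 over 0.2 with all libraries, and 1 and 2 without WT 2. Adgre1 had a log2 fold change of -0.98, Cd68 of -0.82 and Csf1r of -0.34 with all libraries, and of -0.048, 0.20 and 0.19 without WT 2. The markers over 0.2 with all libraries were Cd163, at 0.42, and F13a1, at 0.36, which were -0.0043 and 0.19 without WT 2, and WT 2 was the lowest library for both.

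The stromal components relative to the fibroblast markers were at -1.66, -1.37 and -1.66 in WT and at -0.96, -1.13 and -1.56 in Zeb2 cKO hearts. The group means differed by 0.35, with an SD of 0.17 in WT and 0.31 in Zeb2 cKO hearts (n = 3 each), and WT 2 lay above Zeb2 cKO 3, so that the groups overlapped. The difference kept its sign with each library left out, from 0.22 to 0.52, and was 0.45 without WT 2. With all libraries it was larger than the WT spread and about as large as the Zeb2 cKO spread. For single genes it was 0.47 for C1s1, 0.42 for C3, 0.28 for Serping1 and 0.23 for C4b, with exact permutation tests (two-sided, smallest possible p = 0.1) giving p = 0.2, 0.4, 0.3 and 0.4. The fibroblast markers themselves had log2 fold changes such as -1.47 for Col1a1, -0.38 for Pdgfra and -0.52 for Dcn with all libraries, and -0.091, 0.17 and 0.24 without WT 2. Dpt was at -0.52 with all libraries and at 0.48 (standard error 0.20) without WT 2, as high as the stromal components. Of the 10 fibroblast markers 3 were over 0.2 and 0 under -0.2 without WT 2, with a median of 0.048. The gap between the stromal components and the C1q chains was 0.12, 0.57 and -0.11 in WT and 0.79, 0.51 and 0.25 in Zeb2 cKO hearts, with WT 2 inside the range of the Zeb2 cKO libraries.

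**Figure D3:**
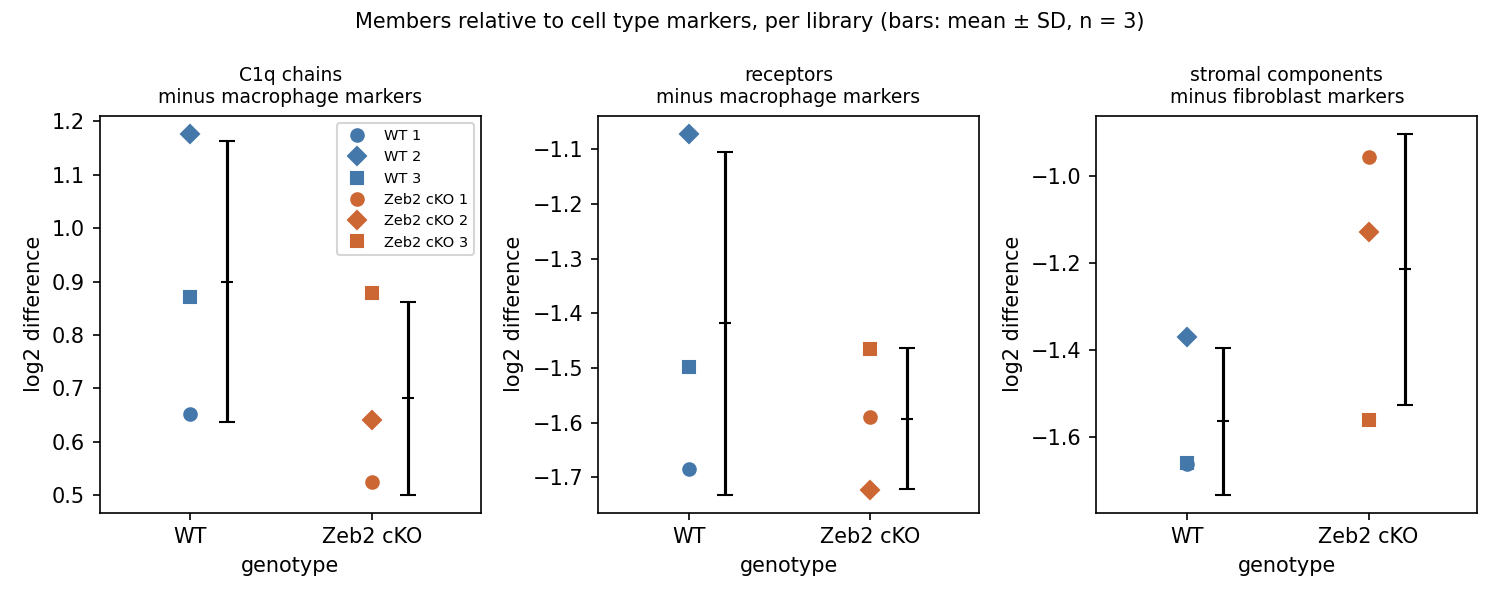
Mean log2 CPM of the C1q chains and of the receptors minus that of the macrophage markers, and of the stromal components minus that of the fibroblast markers, per library (points) with the mean ± SD of each genotype (bars, n = 3). The groups overlap in all panels. Zeb2 cKO 1 and Zeb2 cKO 2 lie above all WT libraries in the stromal panel, and WT 2 is the highest WT library in each panel.

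Levels of different genes were compared as TPM, counts per kilobase of the longest transcript scaled to the same total in each library, mitochondrially encoded genes included. In the order of their means the genes were C1qa, Serping1, C1qb, C1qc, C3, C1s1, C4b, C3ar1 and C5ar1. C1qa was at 77.2 ± 63.8 TPM in WT and 44.7 ± 5.74 TPM in Zeb2 cKO hearts, and C5ar1 at 2.92 ± 2.31 and 1.72 ± 0.227 TPM (SD, n = 3 each). With the mitochondrially encoded genes left out, the levels were higher, at 306 ± 199 and 193 ± 23.2 TPM for C1qa, and the means kept their order. The last 5 genes, from C3 on, kept this order among themselves in all 6 libraries. Among the first 4 it was less fixed, since C1qa was above Serping1 in 4 of 6 libraries and C1qb above C1qc in 2 of 6, and C1qc was above C3 in 5 of 6. The spread over libraries of C1qa, Serping1, C1qb and C1qc was wider than the steps between neighbouring genes.

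C1s1 and C4b each have a close copy in the genome. C1s2 shares stretches (75 bases or longer, identity 95% or higher) that cover 89.7% of the longest C1s1 transcript, and 99.98% of the longest C4b transcript lies in such stretches shared with C4a. How the authors' counting treated reads that fit both copies is not given in the sources used here, so the values of C1s1 and C4b are uncertain. C4a had 4 to 12 counts per library, at most 1.65% of the counts of both copies. C1s2 had 2, 1 and 50 counts in WT and 79, 2 and 4 counts in Zeb2 cKO hearts, so that WT 3 and Zeb2 cKO 1, of different genotypes, stood apart from the rest. It made up 10.1% of the counts of both copies in WT 3 and 8.18% in Zeb2 cKO 1. With the copies added, the log2 ratio of the group means moved from -0.41 to -0.40 for C1s1 and stayed at -0.95 for C4b. None of the other 7 genes had such a stretch or an exon shared with another gene, and C1s1 overlaps Gm16567 on the opposite strand.

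A list of 48 other genes of the complement system was read from the same test. Of these, 47 were in the table and 25 passed the filter on low counts. In edgeR 0 of 25 passed an adjusted p of 0.05 in either direction, and 1, higher in Zeb2 cKO hearts, had an unadjusted p under 0.05. Of the 25, 10 lay under -0.2 and 6 over 0.2 on the log2 fold change scale, with a median of -0.090, beside 22.6% and 15.9% of all genes. WT 2 was more than 2-fold above the mean of the other WT libraries in 10 of the 25 genes and below it in 11. The mannose-binding lectin genes Mbl1 and Mbl2, the terminal component genes C8a, C8b and C9, and Cfb were among 22 genes of the list that did not pass. Cfb, with at most 1 count per library, shares 79.5% of its exon bases with Gm20547 on the same strand, and its count is uncertain.

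Among proteins of the C1 complex and the regulators, C1ra (encoding C1r, the partner of C1s) was at 4.43, 23.7 and 5.57 CPM in WT and 7.61, 5.99 and 5.42 CPM in Zeb2 cKO hearts. Its log2 fold change was -0.83 (standard error 0.62), and 0.34 without WT 2. Stretches shared with C1rb and Gm18840 make up 81.5% of its longest transcript. For C1rl, encoding a C1r-like protease, it was -0.71 (standard error 0.40), and -0.21 without WT 2. Cd55, a membrane inhibitor of the C3 convertases, differed between the groups by -0.51 on the log2 scale (standard error 0.32), and by -0.027 without WT 2.

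WT 2 was the highest library for the receptor genes Itgam, Itgb2, Itgax and C5ar2, and for Colec12. Itgam and Itgb2, which encode complement receptor 3, had log2 fold changes of -0.81 and -0.86, and of 0.041 and -0.012 without WT 2. Of the longest Itgam transcript, 75.7% lies in stretches shared with Gm49368 and others, so its count is uncertain. Itgax, which pairs with Itgb2 in complement receptor 4, was at 1.22, 5.88 and 0.964 CPM in WT and at 0.799, 0.784 and 1.005 CPM in Zeb2 cKO hearts, and its log2 fold change was -1.64 (standard error 0.70) with all libraries and -0.33 without WT 2. C5ar2, encoding the other C5a receptor, stood at -0.80 (standard error 0.37), and at -0.30 without WT 2. Colec12, a scavenger receptor of the collectin family, was at -0.55 (standard error 0.36), and at 0.020 without WT 2.

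Vsig4 encodes a complement receptor of resident macrophages and did not follow C1q, like the macrophage markers Cd163 and F13a1. It was at 0.504, 0.365 and 1.28 CPM in WT and at 1.04, 1.29 and 1.41 CPM in Zeb2 cKO hearts, and WT 2, the highest library for each C1q chain, was the lowest here. Its log2 fold change was 0.81 (standard error 0.46, unadjusted p = 0.125 from edgeR's quasi-likelihood test), and it was 0.49 without WT 2 and 1.52 without WT 3. The groups overlapped. C6, a component of the membrane attack complex, was the gene of the list with the smallest p. It had 3, 5 and 10 counts in WT and 17, 20 and 21 counts in Zeb2 cKO hearts, at 0.0796, 0.114 and 0.260 CPM against 0.340, 0.461 and 0.391 CPM. All Zeb2 cKO libraries were above all WT libraries, and the log2 fold change was 1.38 (standard error 0.45, unadjusted p = 0.0187 and adjusted p = 0.957 in edgeR), and 1.20 without WT 2. Cfd encodes adipsin, a protease of the alternative pathway that is abundant in fat cells, and was at 0.292, 0.205 and 0.651 CPM in WT and 1.66, 0.576 and 0.540 CPM in Zeb2 cKO hearts. Summed adipocyte markers were at 0.205 to 0.345 CPM in WT and 0.763 to 1.70 CPM in Zeb2 cKO hearts, highest in Zeb2 cKO 1 as for Cfd. These sums rest on few counts, and only 1 of the 6 markers, Adig, passed the filter with all libraries. Adig had 4, 3 and 3 counts in WT and 20, 10 and 15 in Zeb2 cKO hearts. Cfd had 11, 9 and 25 counts in WT and 83, 25 and 29 in Zeb2 cKO hearts. The part of adipocytes in the Cfd values was not tested. The log2 fold change of Cfd was 1.28 (standard error 0.61), and it was 0.97 without WT 2 and 0.55 without Zeb2 cKO 1.

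**Figure D4:**
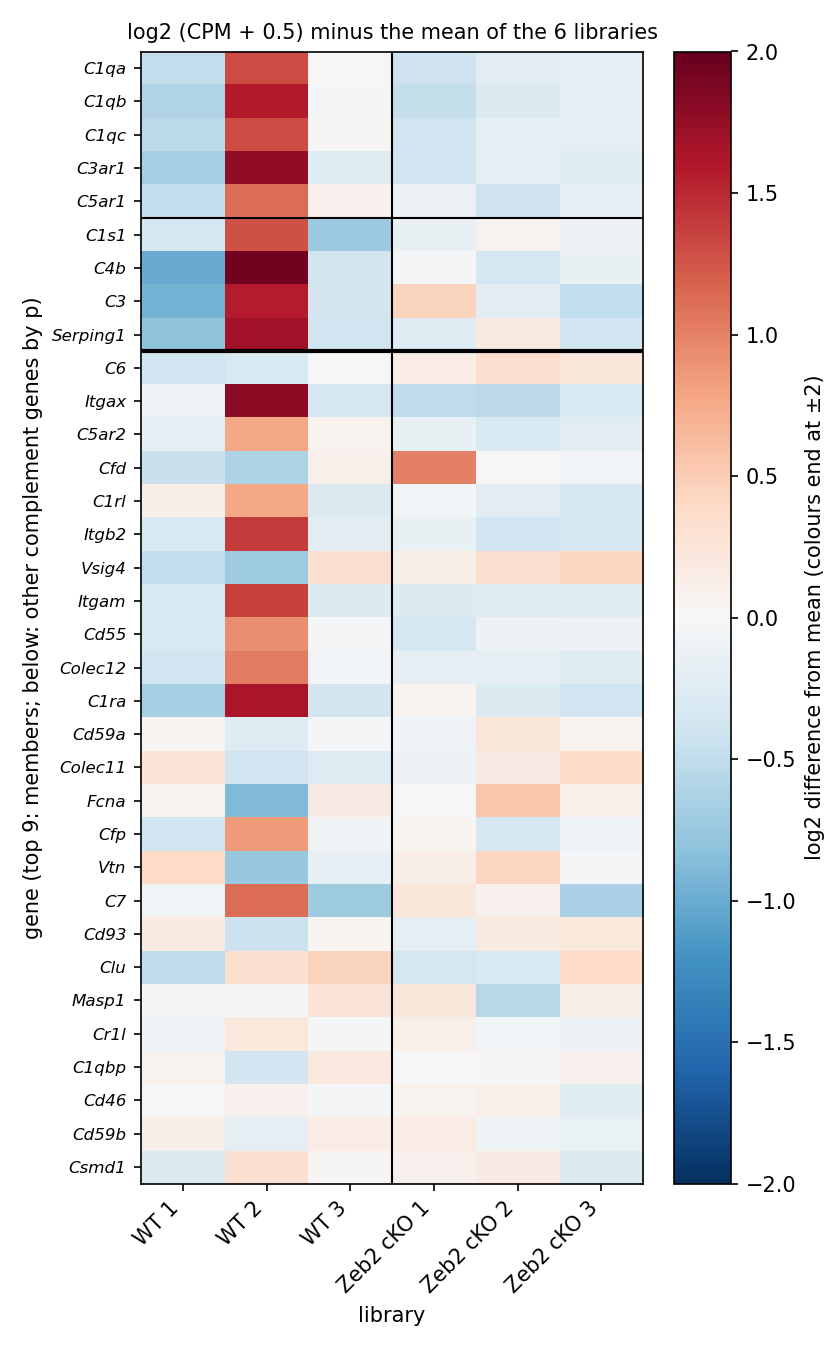
Log2 (CPM + 0.5) of the 9 members (top) and the 25 other tested complement genes (below, by p) minus the mean of the 6 libraries, with colours ending at ±2. The WT 2 column is raised in all 9 members, C1ra and Itgax, and lowered in genes such as Vsig4, Fcna and Vtn, while C6 is higher in the 3 Zeb2 cKO columns.

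The genes whose log2 CPM followed the C1q chains most closely over the 6 libraries were A4galt, Sat1, Apobec1, Skap2 and Pip4k2a, with Pearson r from 0.998 to 0.9996. Those closest to the mean of the stromal components were Sec11c, Gm9294, Scara3, Slc50a1 and Hexa, with r from 0.996 to 0.998. Such values were common, since 14.7% of 8346 genes searched had an r over 0.9 with the C1q chains and 9.89% of 8345 genes with the stromal components. Without WT 2 these shares were 2.05% and 1.75%. The size of the change differed even where r was high, as A4galt was at 3.48 to 10.1 CPM and Sec11c at 5.28 to 7.34 CPM over the libraries.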

How the data were processed

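RNA-seq of 3 WT and 3 Zeb2 cKO heart samples was used. The authors' deposited values are raw counts per gene, in 1 table made from stranded libraries depleted of ribosomal RNA (single-end reads) that were aligned and counted on Gencode M4 with the STAR workflow. The STAR version and the treatment of reads with several matches are not given in the sources used here. All columns were matched to samples by label. Symbols, coordinates and transcript lengths came from Gencode M21 (GRCm38), and promoters from RefSeq (GRCm38.p6).

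Counts were normalized with TMM, filtered with filterByExpr and tested with glmQLFit and glmQLFTest in edgeR 4.0.16 (R 4.3.3), genotype being the only factor, with Benjamini-Hochberg adjustment over all 14746 genes kept. The standard error is the log2 fold change divided by the root of F. The study used DESeq, and DESeq2 1.42.0 was an alternative. Log2 CPM used a pseudocount of 0.5. BLAST 2.17.0 found near-identical copies. The steps were tested on simulated data. The members and lists were chosen with earlier results of these data known.

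The text names the 9 members, Zeb2, the 11 other complement genes with the smallest p (some complement genes are not reported here), close copies, the 5 genes of highest r in each search and example markers, some of them chosen after their values were seen. Other genes under the filter have no test, and those named were chosen after their counts were seen. Same-numbered WT and Zeb2 cKO libraries come from different animals, so the numbers do not pair them. Neither labels nor methods state which libraries came from which mice, so p-values measure the spread between these libraries. Depth was at least 14301225 counts outside the mitochondrially encoded genes, and the members had 855 to 22203 counts summed over the 6 libraries. Per library, C5ar1 had 73 to 304 counts and C3ar1 188 to 1296, so relative counting error was larger for the receptors than for the other members.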

Additional observations from a re-analysis of the deposited data

How the results depend on the processing

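The 9 complement genes stayed below 0 under DESeq2 size factors, no filter on low counts, DESeq2's Wald test, the robust fit, removal of mitochondrially encoded genes and the replicate block. Under the block, which rests on numbers that do not pair animals (correlations of same-numbered deviations 0.10, -0.16 and -0.14), 7 of 9 rather than 9 were under -0.2, and 0 genes in the table passed an adjusted p of 0.05. DESeq2 called 2 genes of the table, higher in Zeb2 cKO hearts, and no complement gene, against 0 in edgeR beside 280 genes at an unadjusted p under 0.05.

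With the macrophage or the fibroblast markers as a covariate, or without WT 2, 0 members were under -0.2 and 4 over 0.2. Without WT 2, 11.7% of all genes were under -0.2 and 14.2% over 0.2. The shares of all genes in the covariate fits are not given here. The log2 fold change with the macrophage and then the fibroblast covariate was 0.056 and 0.12 for C3ar1, 0.30 and 0.38 for C1s1, 0.39 and 0.45 for C4b, 0.50 and 0.56 for C3, 0.33 and 0.40 for Serping1, and 0.21 and 0.27 for C1ra. The stromal median was 0.36 and 0.43, and the macrophage median -0.10 and -0.055. Of the other complement genes 4 were then under -0.2 in both fits, and without a filter 24 were under -0.2 and 12 over 0.2.

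Leaving out 1 library each gave ranges of -1.44 to 0.18 for C3ar1, -0.76 to 0.48 for C1s1, -1.40 to 0.50 for C4b, -0.94 to 0.60 for C3, -1.13 to 0.46 for Serping1, -1.10 to 0.041 for Itgam, -0.81 to 0.020 for Colec12 and -1.21 to 0.34 for C1ra. They were 0.49 to 1.52 for Vsig4 and 0.55 to 1.89 for Cfd. The medians ranged from -1.07 to -0.024 (macrophage) and from -1.04 to 0.49 (stromal). Members under -0.2 numbered 0 to 9 and over 0.2 0 to 4, those without overlap 0 to 4 lower and 0 to 3 higher, and other complement genes under -0.2 6 to 14 and over 0.2 5 to 8. In the pattern searches 1 to 2 of the 5 C1q genes and 0 to 3 of the 5 stromal genes were kept. The cause of these changes was not tested.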

Other observations

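Among complement genes that did not pass the filter on low counts, a pair had counts concentrated in WT 2. Cfi, which encodes the protease that inactivates C3b and C4b, had 5, 124 and 5 counts in WT and 6, 9 and 8 counts in Zeb2 cKO hearts. C2, which encodes the protease of the classical C3 convertase, had 6, 38 and 7 counts in WT and 12, 8 and 9 counts in Zeb2 cKO hearts. Of the exon bases of C2, 42.8% are shared with Gm20547 on the same strand, so its counts are uncertain. They were chosen after their values were seen and were not tested.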
